A study of Mus musculus with 16 samples.

Results

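The 9 genes described here include those of the membrane-linked serine proteases Prss8, Hpn, St14, Tmprss2 and Tmprss4 and of the tryptase-like serine protease Prss22. The others encode the Kunitz-type inhibitors Spint1 and Spint2, and the sodium channel subunit Scnn1a. They were taken by gene name from 54532 genes in 2 tables of RNA sequencing values. The set was chosen by the measured CPM and TPM of Prss8 and Hpn, which differed in opposite directions in the 2 comparisons of the study. The values of Prss8 and Hpn in both comparisons are therefore given as a description, with no test. The cells were KPC1199, a mouse pancreatic cancer line, sorted back out of tumours grown in the pancreas. In the first comparison, cells overexpressing Ly6d were set against WT cells of the line. In the second, cells sorted for high Ly6d expression were set against cells sorted for low Ly6d expression. Ly6d encodes a small surface protein of the Ly6 family. Each of these 4 groups had 2 libraries, and the labels do not say whether they came from separate mice, so p-values cover only the spread between libraries. The sources used here do not state the vector, its promoter or the number of clones behind the overexpressing cells.

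Membrane-linked serine proteases cut proteins at the cell surface and are made as inactive precursors. In epithelia, prostasin (Prss8) and matriptase (St14) activate one another, and the Kunitz inhibitors HAI-1 (Spint1) and HAI-2 (Spint2) hold them in check. Known substrates of this protease group include the epithelial sodium channel, the precursor of hepatocyte growth factor and the receptor PAR2.

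Library totals were between 18001470 and 18290325 counts for overexpression and between 15449241 and 18108850 for WT. For the other table they were between 18362419 and 20509539 reads for Ly6d-high and between 15063975 and 19322028 for Ly6d-low, as recovered from TPM. Ly6d was at 3380 and 3423 CPM (counts scaled to the library total) in overexpression libraries, against 1260.0 and 1066 CPM in WT libraries (log2 fold change 1.53 ± 0.08 SE; edgeR adjusted p = 1.66e-07). It was at 697 and 504 TPM (transcript abundance scaled for gene length and library total) in Ly6d-high cells, against 1.56 and 0.352 TPM in Ly6d-low cells, a difference set by the sort. The columns of the overexpression group were assigned to sorted cells by a library name shared with overexpressing tumours, and the WT columns have a name that tumour tissue samples also contain. Their origin from sorted cells rather than tissue is thus an inference from names. WT replicate 2 stood apart in the genes Gm23935 and CT010467.1. Gm23935 took 0.823% of its counts, against 0.0487% in WT replicate 1 and 0.0552% to 0.0654% in the overexpression libraries. CT010467.1 took 0.919%, against 0.0478% in WT replicate 1 and 0.0822% to 0.0931% in the overexpression libraries. All 8 tumour epithelium markers (keratins, Epcam, Cdh1 and claudins) were detected in every group.

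The RefSeq promoter table (GRCm38.p6) held a sequence for 4 of the 9 genes: Hpn, Spint1, Spint2 and Tmprss2. The 250 bases before the start are shown for Hpn and Spint1, which were higher in Ly6d-high cells, and for Tmprss2, which was not. Capitals mark the letters GGGCGG, searched on both strands (CCGCCC on the other), a GC box known to bind Sp1-type factors. The Hpn window is chr7:31115327-31115576, minus strand, upstream of the first of 2 listed starts, and chr7:31110998-31111247 upstream of the second. The Spint1 window is chr2:119237110-119237359, plus strand. The Tmprss2 window is chr16:97611196-97611445, minus strand.
Hpn, first start: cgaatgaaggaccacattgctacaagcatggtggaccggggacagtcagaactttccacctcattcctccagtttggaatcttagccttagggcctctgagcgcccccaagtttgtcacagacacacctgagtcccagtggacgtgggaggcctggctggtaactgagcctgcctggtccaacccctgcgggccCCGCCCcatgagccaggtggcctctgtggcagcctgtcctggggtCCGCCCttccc
Hpn, second start: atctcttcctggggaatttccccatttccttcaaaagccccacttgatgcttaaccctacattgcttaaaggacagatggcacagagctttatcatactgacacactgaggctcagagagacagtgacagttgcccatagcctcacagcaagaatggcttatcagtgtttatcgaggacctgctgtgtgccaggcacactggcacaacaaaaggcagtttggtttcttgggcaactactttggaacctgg
Spint1: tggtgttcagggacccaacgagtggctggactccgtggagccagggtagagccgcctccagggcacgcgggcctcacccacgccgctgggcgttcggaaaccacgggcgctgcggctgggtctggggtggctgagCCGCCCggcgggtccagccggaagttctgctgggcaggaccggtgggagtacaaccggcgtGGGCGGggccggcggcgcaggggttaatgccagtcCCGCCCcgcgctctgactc
Tmprss2: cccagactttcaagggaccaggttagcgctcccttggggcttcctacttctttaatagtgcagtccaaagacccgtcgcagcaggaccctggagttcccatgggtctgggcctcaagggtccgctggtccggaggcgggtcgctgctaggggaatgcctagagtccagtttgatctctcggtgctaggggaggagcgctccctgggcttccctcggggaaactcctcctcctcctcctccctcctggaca
These letters occurred 2 times before the first Hpn start, 0 times before the second, 3 times in the Spint1 window and 0 times in that of Tmprss2, and 32.7% of all 32851 promoter windows held them. The Spint2 window held 3. The Grainyhead-like motif AACCNGTT, which includes AACCGGTT, was in none of these windows and in 1.79% of all promoters (AACCGGTT in 0.116%). G and C made up 61.6% of the first and 48.0% of the second Hpn window, 72.8% of the Spint1 window and 61.6% of the Tmprss2 window. The search for this box was added after the sequences were seen, and these are matches of letters only.

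Prss8 (ENSMUSG00000030800, GRCm38 chromosome 7, 127925716 to 127930104, minus strand, protein coding) encodes prostasin, a protease held to the membrane by a lipid anchor. It was at 3.66 and 1.11 CPM in overexpression libraries, against 11.9 and 8.35 CPM in WT libraries. The groups did not overlap, and the mean in overexpression cells was 0.236 times that in WT cells. The overexpression libraries rested on 67 and 20 counts and differed from each other 3.30-fold, the widest gap between replicates among the 9 genes. The fitted log2 fold change was -2.10 ± 0.44 (SE, n = 2 each), and it was -3.20 without overexpression replicate 1 and -1.49 without overexpression replicate 2. In the sorted populations, Prss8 was at 52.7 and 55.8 TPM in Ly6d-high cells, against 5.09 and 5.30 TPM in Ly6d-low cells. Replicates lay close together here, and the means differed 10.4-fold (log2(TPM + 1) difference 3.16 ± 0.15 SE). Prss8 overlaps Kat8, an acetyltransferase gene on the opposite strand, over 122 bases, and the sources used here do not state a strand setting for the counting. Kat8 was at 11.8 and 12.8 CPM in overexpression, against 13.9 and 15.6 CPM in WT libraries (edgeR adjusted p = 0.496). In the other table it was at 24.2 and 20.5 TPM in Ly6d-high cells, against 17.8 and 19.8 TPM in Ly6d-low cells (limma adjusted p = 0.352).

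Hpn (ENSMUSG00000001249, chromosome 7, 31098725 to 31115290, minus strand, protein coding) encodes hepsin, a type II transmembrane protease abundant in liver and able to cleave the precursor of hepatocyte growth factor. It was at 5.96 and 6.999 CPM in overexpression libraries, against 23.7 and 22.1 CPM in WT libraries. The groups were well apart and replicates lay within 1.17-fold of each other (log2 fold change -1.84 ± 0.19 SE, n = 2 each). In the sorted populations it was at 41.4 and 51.2 TPM in Ly6d-high cells, against 1.49 and 1.44 TPM in Ly6d-low cells. The low values rested on 37 and 45 recovered reads, the high ones on 1363 and 1397. The means differed 31.6-fold (log2(TPM + 1) difference 4.26 ± 0.18 SE), the widest ratio among the 9 genes. Over the alternatives tried, the difference lay between -1.96 and -1.73 with overexpression and between 4.04 and 4.88 in Ly6d-high cells.

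St14 (ENSMUSG00000031995, chromosome 9, 31089402 to 31131853, minus strand) encodes matriptase, the transmembrane partner of prostasin. Its values were 35.2 and 29.9 CPM in overexpression libraries, against 44.9 and 42.7 CPM in WT libraries. Both overexpression libraries lay below both WT libraries, but the log2 fold change of -0.45 ± 0.12 (SE) did not pass the threshold (edgeR adjusted p = 0.0701). The call depended on processing: the adjusted p was 0.0175 with no filter on low counts and 0.00874 without overexpression replicate 1, in a range over the alternatives of 0.00874 to 0.268. St14 rose in Ly6d-high cells, to 26.0 and 38.0 TPM, against 6.63 and 8.76 TPM in Ly6d-low cells. The difference was 1.91 ± 0.23 (SE; limma adjusted p = 0.00274), a 4.15-fold ratio of means. It lost its call without Ly6d-high replicate 2 (1.64, adjusted p = 0.0791), the upper end of its range over the alternatives.

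The remaining proteases did not pass the threshold in either comparison. Tmprss2 (chromosome 16, 97564682 to 97611195), a transmembrane protease known for priming viral spike proteins, was at 326 and 310 CPM in overexpression libraries, against 305 and 298 CPM in WT libraries (adjusted p = 0.716, edgeR). In the sorted populations it was at 61.0 and 81.1 TPM in Ly6d-high cells, against 83.8 and 82.6 TPM in Ly6d-low cells. The limma adjusted p was 0.352 for a difference of -0.24 ± 0.17 (SE). The direction held on recovered reads, where edgeR gave -0.53 with an adjusted p = 0.0198 and DESeq2 -0.55 with an adjusted p = 0.0031 (range over the alternatives 0.0031 to 0.869). Tmprss4 (chromosome 9, 45172726 to 45204092), another transmembrane protease, was at 44.3 and 41.3 CPM in overexpression, against 39.6 and 40.2 CPM in WT libraries (adjusted p = 0.768, edgeR). It was at 45.1 and 54.7 TPM in Ly6d-high cells, against 50.9 and 49.1 TPM in Ly6d-low cells (adjusted p = 0.972, limma), and the groups overlapped. Prss22 (chromosome 17, 23993535 to 23998100), a tryptase-like protease of epithelia, was at 46.0 and 43.9 CPM in overexpression, against 52.5 and 46.3 CPM in WT libraries (adjusted p = 0.509, edgeR). Its values were 122 and 134 TPM in Ly6d-high cells, against 118 and 118 TPM in Ly6d-low cells (difference 0.12, adjusted p = 0.535, limma), a sign that turned with other scalings.

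**Figure D1:**
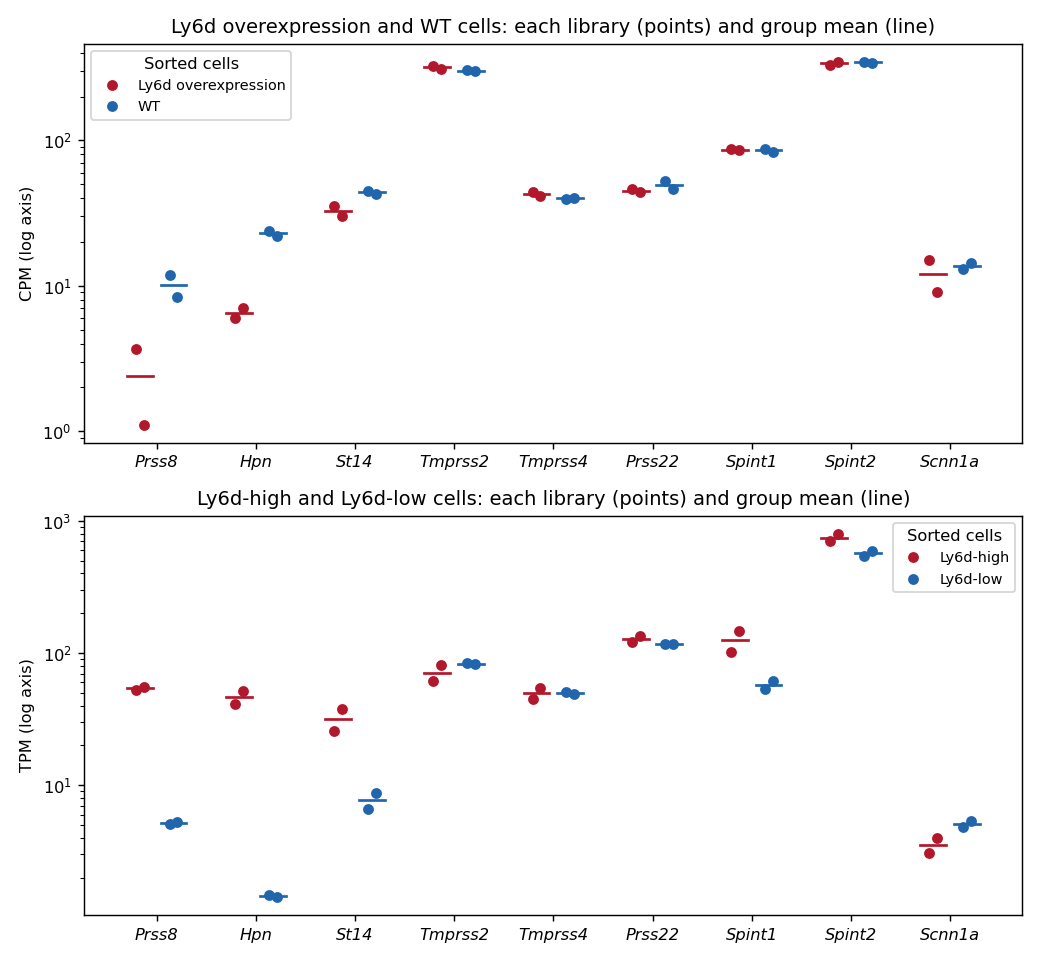
Level of each gene in each library on a log axis, in CPM for overexpression and WT (upper panel) and in TPM for Ly6d-high and Ly6d-low cells (lower panel). Points are libraries and short lines are group means. Prss8 and Hpn lay lowest in the overexpression libraries (1.11 to 6.999 CPM, against 8.35 to 23.7 CPM in WT) and were at 41.4 to 55.8 TPM in Ly6d-high cells, against 1.44 to 5.30 TPM in Ly6d-low cells.

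The inhibitors had levels in overexpression libraries close to those in WT libraries. Spint1 (ENSMUSG00000027315, chromosome 2, 119237362 to 119249527, plus strand), the gene of HAI-1, was at 86.9 and 85.9 CPM in overexpression libraries, against 87.4 and 83.1 CPM in WT libraries. These groups overlapped, and the log2 fold change was 0.00 ± 0.08 (SE; edgeR adjusted p = 0.997). Spint1 rose in Ly6d-high cells, to 102 and 146 TPM, against 53.8 and 61.7 TPM in Ly6d-low cells. That was a 2.16-fold ratio of means and a difference of 1.08 ± 0.19 (SE; limma adjusted p = 0.0155). The call was lost without Ly6d-high replicate 2 (0.82, adjusted p = 0.0865) and with no filter on low values (adjusted p = 0.0932), the upper end of the range over the alternatives. Spint2 (ENSMUSG00000074227, chromosome 7, 29256323 to 29281912, minus strand), the gene of HAI-2, was at 330.1 and 345 CPM in overexpression, against 343 and 342 CPM in WT libraries (adjusted p = 0.813, edgeR). In the sorted populations it was at 701 and 789.8 TPM in Ly6d-high cells, against 543 and 594 TPM in Ly6d-low cells. Both Ly6d-high libraries lay above, yet the difference of 0.39 ± 0.11 (SE) did not pass the threshold (limma adjusted p = 0.0707). With the scaling of edgeR on recovered reads that difference was 0.10, and with TMM factors on TPM it was 0.11.

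Scnn1a (ENSMUSG00000030340, chromosome 6, 125320659 to 125344943, plus strand) encodes the alpha subunit of the epithelial sodium channel, which prostasin is known to activate. It was at 14.98 and 9.11 CPM in overexpression libraries, against 13.1 and 14.2 CPM in WT libraries, so that the overexpression values spanned those of WT (edgeR adjusted p = 0.737). In the sorted populations it was at 3.08 and 3.97 TPM in Ly6d-high cells, against 4.85 and 5.42 TPM in Ly6d-low cells. The groups did not overlap, but the difference of -0.44 ± 0.20 (SE) did not pass the threshold (limma adjusted p = 0.180). On recovered reads edgeR gave -0.85 (adjusted p = 0.0265; range over the alternatives 0.0265 to 0.704). The other subunit genes were near 0: Scnn1b had 0 and 0 counts in overexpression libraries, against 6 and 9 in WT libraries, and 6 and 3 recovered reads in Ly6d-high cells, against 1 and 3 in Ly6d-low cells. Scnn1g had 0 and 0 counts in overexpression, against 2 and 3 in WT libraries, and 0 recovered reads in all 4 Ly6d-high and Ly6d-low libraries.

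All 9 genes passed the filters on low values in both tables. Of the 7 other than Prss8 and Hpn, 0 passed the threshold with overexpression in edgeR, and 0 did in DESeq2. At an unadjusted p under 0.05 there was 1, St14. Across all 15771 genes tested, 2.32% were called higher and 1.84% lower, 4.16% in all. Groups without overlap made up 26.3% higher and 21.7% lower. In Ly6d-high cells 2 of these 7, St14 and Spint1, were higher and 0 lower (0 were called without Ly6d-high replicate 2), where 8.64% of 14625 genes were called higher and 1.17% lower, 9.81% in all (1264 higher and 171 lower). The split of these calls moved with the method: TMM factors on TPM gave 712 higher and 249 lower, edgeR on recovered reads 1224 higher and 591 lower, and DESeq2 on them 940.0 higher and 607 lower. The median log2 difference of these 7 was -0.04 with overexpression, against -0.00 for all genes, and 0.12 in Ly6d-high cells, against 0.25 for all genes. Relative to that all-gene median, the differences of Prss8, Hpn, St14 and Spint1 were 2.91, 4.01, 1.66 and 0.83. With TMM factors on TPM, which put the all-gene median at 0.01, they were 2.90, 4.04, 1.65 and 0.80. Relative to the all-gene median of 0.25, Tmprss2, Tmprss4, Prss22, Spint2 and Scnn1a were at -0.49, -0.26, -0.13, 0.14 and -0.69. Groups without overlap were common among all genes in that table: 54.4% of genes lay higher and 10.4% lower in both Ly6d-high libraries.

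**Figure D2:**
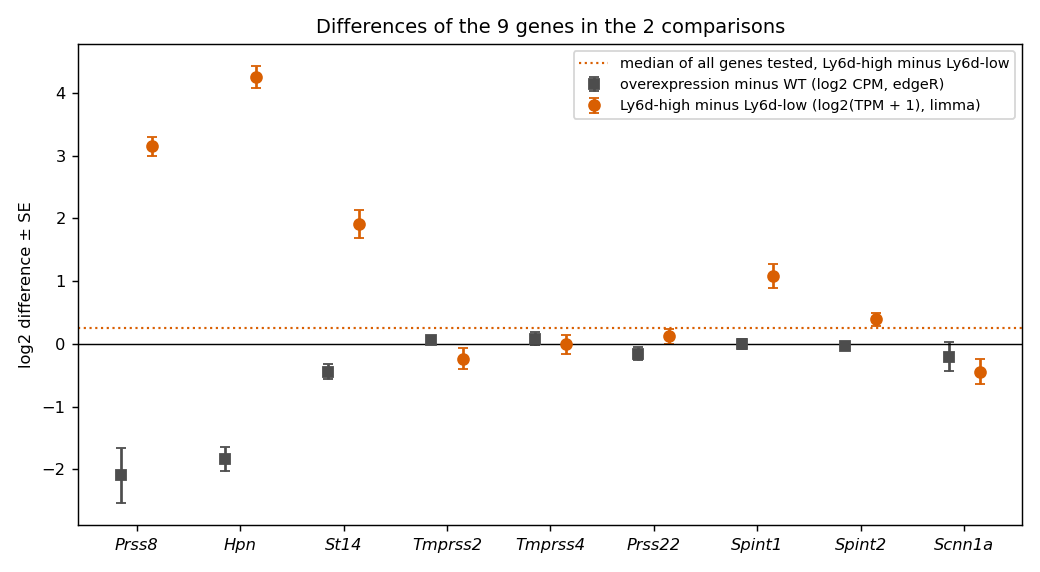
Fitted log2 differences of the 9 genes with their standard errors, overexpression minus WT from counts (squares) and Ly6d-high minus Ly6d-low from log2(TPM + 1) (circles); the dotted line is the all-gene median of the second comparison, 0.25. Prss8 and Hpn lie at -2.10 and -1.84 with overexpression and at 3.16 and 4.26 in Ly6d-high cells. Tmprss2, Tmprss4, Prss22 and Scnn1a lie between -0.44 and 0.12 in both. In Ly6d-high cells these all lie below the dotted line, Scnn1a by 0.69 and Tmprss2 by 0.49.

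Levels of different genes were compared per length, as RPKM (counts scaled to library total and gene length) for the count table and as TPM for the other. Spint2 was the highest of the 9 in all 4 groups, at 74.1 ± 2.30 RPKM in overexpression and 75.2 ± 0.187 RPKM in WT cells (SD, n = 2 each). Tmprss2 and Prss22 followed in both of those groups, and their ranges did not overlap. Hpn and Prss8 were the lowest of the 9 in overexpression cells, at 1.58 ± 0.179 and 1.29 ± 0.974 RPKM, and their ranges overlapped. In WT cells St14, Hpn and Prss8 were at 5.74 ± 0.201, 5.58 ± 0.279 and 5.46 ± 1.34 RPKM and could not be ordered, with Scnn1a below them at 3.31 ± 0.188 RPKM. In Ly6d-high cells Prss8, Tmprss4 and Hpn were at 54.3 ± 2.16, 49.9 ± 6.81 and 46.3 ± 6.91 TPM, with overlapping ranges between neighbours. Hpn was the lowest of the 9 in Ly6d-low cells, at 1.46 ± 0.0404 TPM.

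Sums over the protease genes include Prss8 and Hpn, whose values chose the set, so they are a description. Prss8 and Hpn made up 1.89% and 1.39% of the summed level of the 6 protease genes in overexpression replicate 1 and 0.614% and 1.75% in replicate 2. In WT replicate 1 they made up 5.58% and 5.03%, and in WT replicate 2 4.22% and 5.04%. Their shares in Ly6d-high cells were 15.2% and 11.9% in replicate 1 and 13.4% and 12.3% in replicate 2. In Ly6d-low cells Prss8 held 1.92% and 1.999% and Hpn 0.562% and 0.542%. The 6 genes summed to 348 and 415 TPM in Ly6d-high cells, against 265 and 265 TPM in Ly6d-low cells. Without Prss8 and Hpn the other 4 summed to 254 and 308 TPM in Ly6d-high cells, against 259 and 258 TPM in Ly6d-low cells, and these groups overlapped. The 2 inhibitor genes summed to 803 and 936 TPM in Ly6d-high cells, against 597 and 655 TPM in Ly6d-low cells. Inhibitor per protease transcript, over all 6 protease genes, was 2.31 and 2.26 in Ly6d-high cells, against 2.25 and 2.47 in Ly6d-low cells, with overlapping groups. Over the 4 without Prss8 and Hpn it was 3.17 and 3.04 in Ly6d-high cells, against 2.31 and 2.54 in Ly6d-low cells, with no overlap. With overexpression the ratio was 0.993 and 1.09, against 0.932 and 0.984 in WT libraries, over all 6 genes, and 1.03 and 1.12, against 1.04 and 1.08 in WT libraries, over the 4. Within the inhibitors, Spint2 exceeded Spint1 by 6.84 and 5.39 times in Ly6d-high cells, against 10.1 and 9.63 times in Ly6d-low cells.

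**Figure D3:**
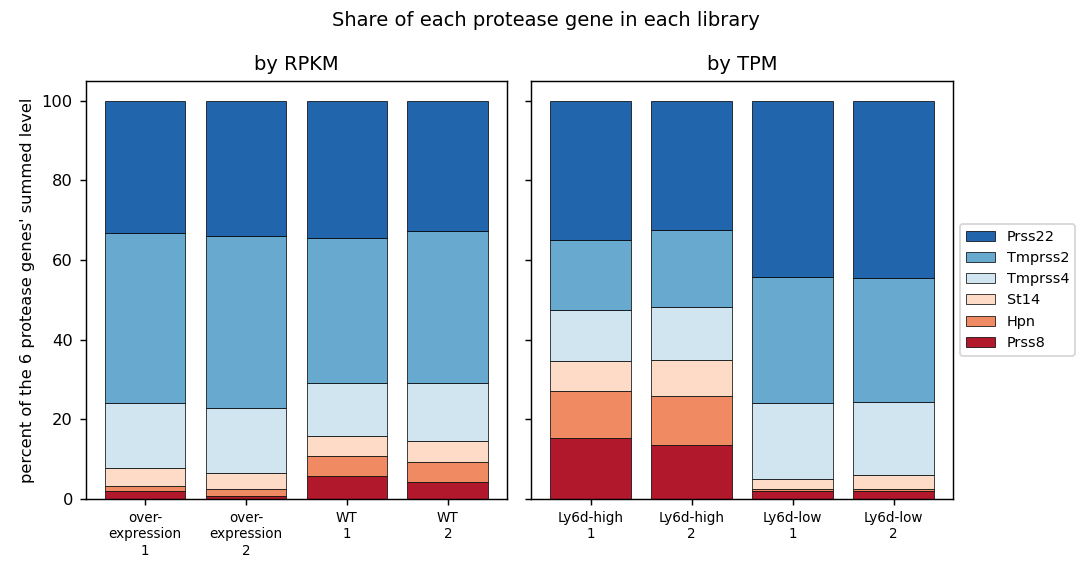
Share of each of the 6 protease genes in their summed level, as a percent, in each library, from RPKM (left) and TPM (right). Prss8 and Hpn, at the foot of the bars, hold 15.2% and 11.9% in Ly6d-high replicate 1, against 1.92% and 0.562% in Ly6d-low replicate 1, while Prss22 and Tmprss2 take most of every bar.

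Pearson's r over the 8 libraries, with each table centred on its own mean of log2(value + 1), was used to find genes with a like pattern among 11291 named protein-coding genes. The libraries of a table share their normalization, and r here mainly follows the 2 group differences. A high r does not mean that the differences of a gene are as large. For Prss8 the 3 closest were Serpina10 (r = 0.991), a serpin inhibitor of coagulation proteases, the collagen gene Col9a3 (r = 0.988) and the deubiquitinase gene Usp42 (r = 0.988). Serpina10 was at 2.41 and 0.611 CPM in overexpression libraries, against 4.91 and 3.82 CPM in WT libraries. It was at 3.96 and 4.51 TPM in Ly6d-high cells, against 0.378 and 0.524 TPM in Ly6d-low cells. For Hpn they were Nudt19 (r = 0.999), the semaphorin gene Sema5a (r = 0.997) and the small heat shock protein gene Hspb8 (r = 0.997). Nudt19 differed less, at 13.7 and 14.6 CPM in overexpression libraries, against 21.7 and 21.3 CPM in WT libraries. Its values were 82.2 and 94.9 TPM in Ly6d-high cells, against 32.5 and 33.1 TPM in Ly6d-low cells. Hspb8 was at 7.65 and 7.22 CPM in overexpression libraries, against 17.5 and 16.3 CPM in WT libraries, and at 19.2 and 24.5 TPM in Ly6d-high cells, against 1.87 and 1.48 TPM in Ly6d-low cells. The r of 0.956 between Prss8 and Hpn was fixed by the choice of the set. St14 had an r of 0.924 with Prss8 (rank 326) and 0.963 with Hpn (rank 201), so many other genes were closer. With Prss8 and with Hpn, Spint1 had an r of 0.797 and 0.881, Spint2 of 0.791 and 0.895, and Prss22 of 0.765 and 0.670. The r of Tmprss2 was -0.57 with Prss8 and -0.62 with Hpn.

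The calls in each pathway list below are read beside the share of all genes called, which was 4.16% with overexpression (2.32% higher, 1.84% lower) and 9.81% in Ly6d-high cells (8.64% higher, 1.17% lower). Of 24 further membrane-anchored serine proteases, 9 had no reads in any of the 8 libraries and 5 could be tested in at least 1 table. With overexpression 0 of 5 were higher and 1 was lower (1.84% of all genes), Prss30, with a median log2 fold change of -0.63, against -0.00 for all genes. Prss30, named after its values were seen, had 0 counts in overexpression libraries, against 26 and 9 in WT libraries, at least 12.6-fold lower with a floor of 3 counts over the overexpression group. Its edgeR adjusted p was 0.0435, and the call was lost without WT replicate 2 (0.154) or overexpression replicate 2 (0.0521), and without WT replicate 1 the gene did not pass the filter, in a range over the alternatives of 0.0122 to 0.154. In Ly6d-high cells 0 of 3 were called with limma (median -0.61, against 0.25 for all genes), with 3 at an unadjusted p under 0.05. These differed in direction, and are named after their values were seen: Tmprss6 at 1.13 (limma adjusted p = 0.0536), Prss27 and Prss32 at -0.61. On recovered reads edgeR called 1 higher and 0 lower, and DESeq2 called 0.

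Among 17 other protease inhibitors, Ambp, the precursor gene of the Kunitz inhibitor bikunin, had called differences of opposite sign. It fell to 17.4 and 21.5 CPM in overexpression libraries, against 51.5 and 49.2 CPM in WT libraries (log2 fold change -1.39 ± 0.14 SE; edgeR adjusted p = 0.00011). It rose to 761 and 742 TPM in Ly6d-high cells, against 42.4 and 46.3 TPM in Ly6d-low cells (difference 4.05 ± 0.12 SE; limma adjusted p = 6.68e-06). The secreted inhibitor gene Slpi also rose, to 68.3 and 47.7 TPM in Ly6d-high cells, against 16.0 and 14.5 TPM in Ly6d-low cells (limma adjusted p = 0.00176). In overexpression libraries Slpi was at 17.7 and 17.3 CPM, against 17.9 and 14.6 CPM in WT libraries (edgeR adjusted p = 0.854). In all, 0 of 10 tested were higher and 1 lower with overexpression (median 0.15; 4.16% of all genes called), and 2 of 8 higher and 0 lower in Ly6d-high cells (median 0.44, against 0.25 for all genes; 9.81% of all genes called). Without Ly6d-high replicate 1 the count in Ly6d-high cells was 6. With DESeq2, and without WT replicate 1 or WT replicate 2, 1 of this list was higher and 1 lower with overexpression. Serpine2, the gene of protease nexin-1, a known prostasin inhibitor, was named after its values were seen. It was at 131 and 137 CPM in overexpression libraries, against 129 and 119 CPM in WT libraries, and did not pass the threshold (edgeR adjusted p = 0.561). In Ly6d-high cells it was at 94.7 and 113 TPM, against 76.9 and 78.6 TPM in Ly6d-low cells (limma adjusted p = 0.109).

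Of the sodium channel's partners and regulators, 15 of 17 could be tested. With overexpression 1 was higher, Tsc22d3, a glucocorticoid-induced leucine zipper gene, at 128 and 129 CPM, against 85.0 and 80.8 CPM in WT libraries (log2 fold change 0.61 ± 0.08 SE; edgeR adjusted p = 0.000716). None was lower, and the median was 0.08, against -0.00 for all genes. In Ly6d-high cells 1 was higher, the deubiquitinase gene Usp2, at 3.62 and 4.59 TPM, against 0.653 and 0.706 TPM in Ly6d-low cells (limma adjusted p = 0.00498), and 0 were lower (median 0.32, against 0.25 for all genes, of which 8.64% were called higher). That count was 9 without Ly6d-high replicate 1 and 0 without Ly6d-high replicate 2, and edgeR and DESeq2 on recovered reads each called 1 higher and 1 lower. The Usp2 call was lost without Ly6d-high replicate 2 (adjusted p = 0.0584) and with no filter on low values (adjusted p = 0.0539), in a range over the alternatives of 1.12e-08 to 0.0584. In overexpression libraries Usp2 was at 1.64 and 1.94 CPM, against 3.31 and 3.69 CPM in WT libraries, and did not pass the threshold (edgeR adjusted p = 0.295). Furin, whose protein cuts channel subunits inside the cell, was also named after its values were seen. It was at 224 and 209 CPM in overexpression libraries, against 214 and 211 CPM in WT libraries (edgeR adjusted p = 0.95). In Ly6d-high cells it was at 11.2 and 13.2 TPM, against 10.2 and 9.91 TPM in Ly6d-low cells (limma adjusted p = 0.331).

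In the list of substrates and of the hepatocyte growth factor, MSP and plasminogen axis, 0 of 18 tested genes were called with overexpression in edgeR. DESeq2 also called 0, and 3 had an unadjusted p under 0.05 (median log2 fold change -0.01). Without WT replicate 1 or overexpression replicate 1, and with no filter on low counts, 1 was lower. In Ly6d-high cells 1 of 17 was higher, the tight junction gene Cldn7, at 467 and 509.6 TPM, against 269.9 and 288 TPM in Ly6d-low cells (difference 0.80 ± 0.11 SE; limma adjusted p = 0.00508). No gene was lower, and the median was 0.12, against 0.25 for all genes, of which 8.64% were called higher. The count was 5 without Ly6d-high replicate 1 and 0 without Ly6d-high replicate 2 or Ly6d-low replicate 1. Cldn7 lost its call without Ly6d-high replicate 2 (adjusted p = 0.0584) or Ly6d-low replicate 1 (adjusted p = 0.0741), in a range over the alternatives of 7.44e-09 to 0.0741. With edgeR on recovered reads 1 gene of the list was higher and 4 were lower. Epcam and Met were named after their values were seen. Epcam, whose protein is a matriptase substrate, was at 1955 and 2011 TPM in Ly6d-high cells, against 2434 and 2288 TPM in Ly6d-low cells (limma adjusted p = 0.105). Met, the receptor of hepatocyte growth factor, was at 16.4 and 21.4 TPM in Ly6d-high cells, against 15.5 and 16.3 TPM in Ly6d-low cells (limma adjusted p = 0.418). Neither passed the threshold with overexpression (edgeR adjusted p = 0.893 for Epcam and 0.902 for Met).

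**Figure D4:**
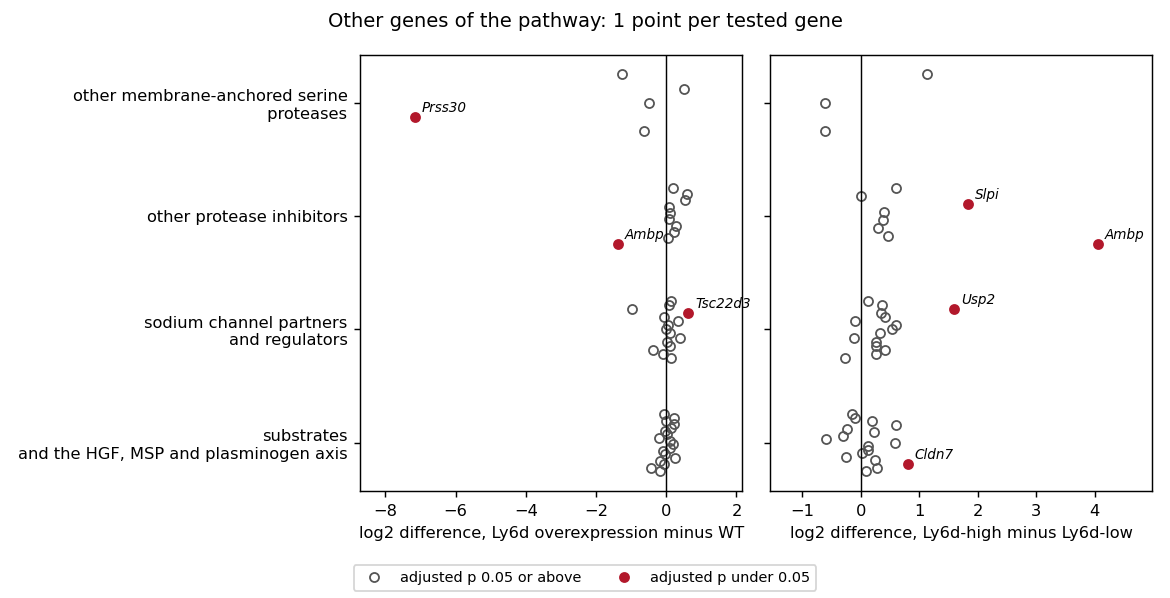
Fitted log2 differences of every tested gene of the 4 pathway lists, overexpression minus WT (left) and Ly6d-high minus Ly6d-low (right); filled points have an adjusted p under 0.05 and are named. Most points lie close to 0. Ambp is called on opposite sides, at -1.39 and 4.05, and the position of Prss30, which had 0 counts in overexpression, depends on the prior count of the fit.

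Markers of other cells differed between the same libraries. Their calls are read beside the shares of all genes called. These were 2.32% higher and 1.84% lower with overexpression, and 8.64% higher and 1.17% lower in Ly6d-high cells. The 11 acinar markers summed to 1316 and 1451 CPM in overexpression libraries, against 18355 and 18658 CPM in WT libraries, and to 9904 and 9304 TPM in Ly6d-high cells, against 4096 and 4112 TPM in Ly6d-low cells. Of the 10 tested, 10 were lower with overexpression and 8 higher in Ly6d-high cells. Those are the directions of Prss8 and Hpn, and also of Ttr, of Cldn4 and of the endothelial sums given below. The 9 hepatocyte markers, relevant since liver expresses Hpn, summed to 58.2 and 61.2 CPM in overexpression, against 62.2 and 59.8 CPM in WT libraries. They summed to 161 and 142 TPM in Ly6d-high cells, against 51.0 and 52.9 TPM in Ly6d-low cells, with 6 of 8 tested higher. Ttr had the largest part of that rise, at 85.6 and 69.2 TPM, against 8.69 and 7.09 TPM. Apoa1 was at 27.5 and 25.7 TPM, against 34.5 and 37.8 TPM, and was not called. With overexpression 1 of 5 tested was called, Ttr, which was lower. Serpina1a was at 0 in all 4 groups, Fga at 0 in overexpression libraries, and Fgb at 0 in overexpression and Ly6d-low libraries. The 7 islet markers summed to 582 and 633 CPM in overexpression, against 1373 and 1212 CPM in WT libraries, and to 407 and 356 TPM in Ly6d-high, against 760.3 and 717 TPM in Ly6d-low cells. The 10 leukocyte markers summed to 281 and 287 CPM in overexpression, against 44.8 and 42.1 CPM in WT libraries, with Cd3e at 0 there. They summed to 233 and 204 TPM in Ly6d-high, against 55.8 and 55.0 TPM in Ly6d-low cells. Lyz2 had the largest part of that rise, at 90.8 and 84.9 TPM, against 10.1 and 11.8 TPM. Jchain followed, at 65.8 and 55.7 TPM, against 0.132 and 0.104 TPM. Ptprc was at 0.0817 and 0.172 TPM in Ly6d-high cells, against 0.0633 and 0.0429 TPM in Ly6d-low cells. In that comparison Ptprc, Adgre1, S100a8, Cd3e and Cd79a were too low to be tested. The 4 endothelial markers summed to 115 and 129 CPM in overexpression, against 233 and 234 CPM in WT libraries, and to 81.5 and 111 TPM in Ly6d-high, against 60.9 and 66.7 TPM in Ly6d-low cells. The 5 fibroblast markers summed to 1762 and 1750.2 CPM in overexpression, against 1421 and 1547 CPM in WT libraries, and to 100.1 and 127 TPM in Ly6d-high, against 93.2 and 91.8 TPM in Ly6d-low cells. The 8 tumour epithelium markers summed to 12745 and 13430 CPM in overexpression, against 12444 and 12056 CPM in WT libraries, and to 40038 and 39162 TPM in Ly6d-high, against 55738 and 56867 TPM in Ly6d-low cells. Keratins make up most of that sum: 4 keratins were lower and Cldn4 and Cldn7 were higher in Ly6d-high cells, and Cldn4 was lower with overexpression. Calls were 7 of 7 islet markers lower with overexpression and 4 lower in Ly6d-high cells, and 3 of 4 endothelial markers lower with overexpression. In Ly6d-high cells 0 of 3 tested endothelial markers were called. Plvap made up most of their sum there, at 78.0 and 107 TPM, against 57.5 and 63.8 TPM in Ly6d-low cells. Of leukocyte markers 7 of 9 were higher with overexpression and 3 of 5 in Ly6d-high cells, and of 5 fibroblast markers 1 was higher with overexpression. The part of these cells in the values of the 9 genes was not tested. In bulk libraries, fewer cells of a type and less RNA per cell cannot be told apart.

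**Figure D5:**
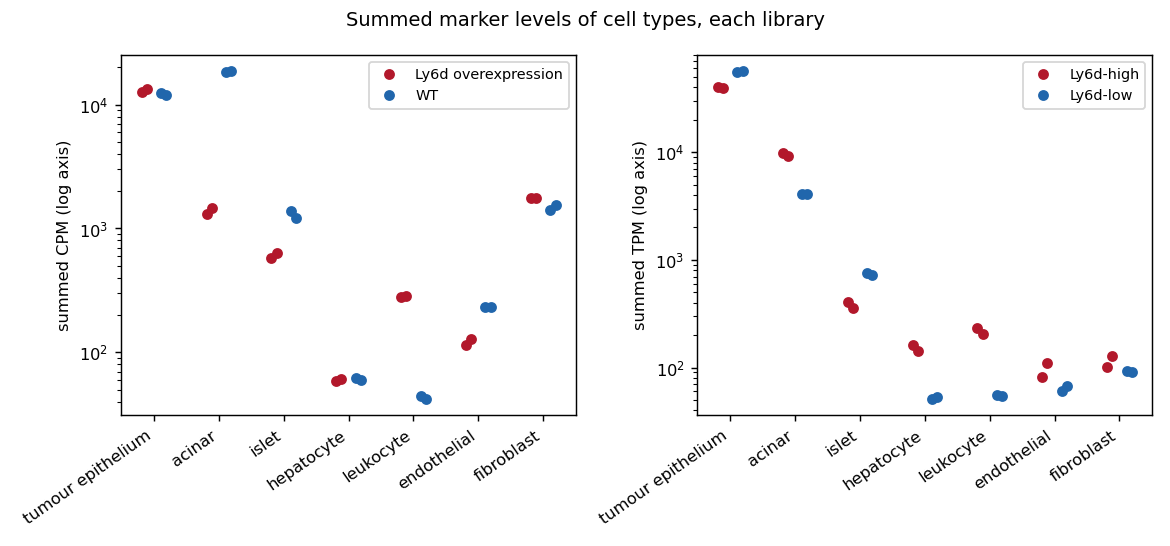
Summed level of the markers of each cell type in each library on a log axis, in CPM (left, overexpression and WT) and TPM (right, Ly6d-high and Ly6d-low). The acinar sum is 1316 and 1451 CPM in overexpression libraries, against 18355 and 18658 CPM in WT, and 9904 and 9304 TPM in Ly6d-high, against 4096 and 4112 TPM in Ly6d-low cells.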

How the data were processed

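Per the labels' protocols, total RNA was isolated with TRIzol, and libraries were made and sequenced by Illumina methods. Fastp, HISAT2, featureCounts, DESeq2 and the build mm9 are named per the submitters' processing notes, without versions. Coordinates given with the deposited values match GRCm38 (no mm9 annotation was compared): 98.3% of 54409 genes found in GENCODE M21 had the same coordinates there, 8 of the 9 described here included, and those of Prss22 differed. The authors deposited raw counts per gene for overexpression and WT cells. They deposited TPM, over the gene length listed, for Ly6d-high and Ly6d-low cells. Gene length, the other column used from the deposited tables, is in bases of the gene model. Columns were matched to groups by name, 2 further count columns matched no label, and the 8 tissue samples were not analysed here.

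For counts the test was edgeR's quasi-likelihood test (version 4.0.16, R 4.3.3, filterByExpr, TMM), and SE is the log2 fold change over the square root of F. For TPM it was limma-trend (limma 3.58.1), run on log2(TPM + 1) where 2 or more libraries reached 1 TPM. That scale understates changes of low genes. Benjamini-Hochberg adjusted p had to be under 0.05 over all genes tested. DESeq2 1.42.0 was an alternative. Reads were recovered from TPM times gene length: 100% of 85643 values above 0 were whole within 0.1 reads. RPKM were computed from the deposited counts and gene length. Each table was tested on its own, since they were normalized separately. Both tests were checked on simulated data.

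The 9 genes and the gene lists were chosen with earlier results of these data known. Pathway lists held 81 entries, of which 79 matched a gene by name. Named from each list were up to 6 called genes with the lowest p whose mean reached 1 CPM or TPM, and the 3 genes closest in pattern to Prss8 and to Hpn. The GC box search was added after the sequences were seen. Alternatives were other scalings, filters, pseudocounts and tools, a replicate block, and each library left out in turn, where the lone library of its group was assumed to vary like the other group.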

Additional observations from a re-analysis of the deposited data

How the results depend on the processing

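Prss8 and Hpn kept the sign of their difference in all alternatives tried in both comparisons. Those signs chose the set and the groups did not overlap, so this is a description and no support for them. The count of all genes called with overexpression, 656, was 1187 with no filter on low counts and ran from 565 to 1584 with 1 library left out, the upper end without overexpression replicate 1, with 1062 without overexpression replicate 2. That in Ly6d-high cells, 1435, was 531 with no filter on low values and ran from 387, without Ly6d-high replicate 2, to 4764, without Ly6d-high replicate 1. It was 931 without Ly6d-low replicate 1. Of the 7 genes other than Prss8 and Hpn, 0 were called with overexpression, and 1 (St14, lower) with no filter, in a range from 0 to 1 with 1 library left out. In Ly6d-high cells 2 were called, 1 with no filter on low values, 4 with edgeR on recovered reads (2 higher, 2 lower), and from 0 to 3 with 1 library left out.

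Some uncalled genes turned sign, not all of them near 0. Spint1 with overexpression was at -0.0091 with no filter and -0.0016 with scaling that left out markers of other cells, and ran from -0.027 to 0.019 with 1 library left out. So left out, Scnn1a ran from -0.61, without overexpression replicate 1, to 0.11, without overexpression replicate 2. Slpi ran from -0.044 to 0.23 and, in Ly6d-high cells, Tmprss4 from -0.15 to 0.13. Prss22 was there at -0.16 with TMM factors, -0.18 with edgeR and -0.19 with DESeq2 on recovered reads. Causes were not tested. The lists' counts of calls moved in 30 of 72 alternatives.

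Libraries of Ly6d-high and Ly6d-low cells share replicate numbers, but the labels do not say whether these numbers pair them. Same-numbered libraries deviated from their group means with r = 0.068 across 14625 genes. With so few libraries that value cannot show whether they came from the same tumour. With the replicate block 4179 genes were called (3581 higher, 598 lower), Spint2 had a limma adjusted p = 0.00633, and 5 of the other inhibitors and 4 of the sodium channel list were higher. No paired analysis was possible for overexpression because its columns carry no sample's number. Depth limits Prss8 with overexpression, at 67 and 20 counts, and Hpn in Ly6d-low cells, at 37 and 45 recovered reads.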

Other observations

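Genes within 100000 bases of Prss8 and of Hpn were looked at after their values were seen. For Hpn, 0 of 4 tested protein-coding neighbours passed the threshold in Ly6d-high cells (limma) and 0 of 5 with overexpression (edgeR). For Prss8, 0 of 9 passed with overexpression (edgeR), where 4.16% of all genes were called. In Ly6d-high cells 1 of 9 tested protein-coding neighbours of Prss8 passed the threshold (limma), where 9.81% of all genes were called. The 1 was Pycard, an adaptor gene of the inflammasome, at 6.99 and 5.74 TPM in Ly6d-high cells, against 0.305 and 0 TPM in Ly6d-low cells (difference 2.68 ± 0.24 SE; limma adjusted p = 0.000716). In overexpression libraries Pycard was at 0.984 and 1.39 CPM, against 1.27 and 1.55 CPM in WT libraries (edgeR adjusted p = 0.889).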
